A study of Mus musculus with 6 samples.

Results

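A set of 44 genes of protein folding and stress handling in the endoplasmic reticulum (ER) were followed in mouse beta-cells that had been cultured with or without the other islet endocrine cells. They were chosen by gene symbol from 5 roles of the pathway, namely lumenal chaperones and co-chaperones (14 genes), oxidative folding (8), ER-associated degradation (6), stress sensors and transcription (5) and translocation with signal peptide cleavage (11). All 44 were among the 13535 genes tested. The beta-cells were wild type (WT) and came from male C57BL/6JRj mice aged 12 weeks. They were reaggregated for 5 days either together with alpha- and delta-cells, which the labels call all endocrine cell types (pseudo-islets, 3 libraries), or alone (pseudo-beta, 3 libraries), then sorted again by flow cytometry before RNA extraction. Neither group received an added agent, and the comparison asks whether neighbouring alpha- and delta-cells alter gene expression in beta-cells. Experiments 35, 36 and 37 each gave 1 library of each group, and how many mice went into a sample is not given in the sources used here.

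The values are normalized read counts. Their total per library was 18637128 to 19635287 in pseudo-islets and 17994346 to 18380415 in pseudo-beta, so the groups did not overlap. Results with libraries scaled to equal totals are given below. The beta-cell identity was checked with 10 beta-cell markers, all measured, whose summed level was 7220072 to 8337444 in pseudo-islets and 6961554 to 7704913 in pseudo-beta. Most of this sum was *Ins2* (mean 5650228), so it says little about the other markers. *Slc30a8* (log2 fold change -0.31), *Slc2a2* (-0.16) and *Nkx6-1* (-0.13) were lower in pseudo-islets in 3 of 3 experiments. *Ins1*, *Ins2*, *Iapp*, *Ucn3*, *Mafa* and *G6pc2* were higher in 3 of 3, and *Pdx1* was mixed. None of the 10 passed a limma adjusted p of 0.05 with or without the experiment as a block. Other endocrine RNA differed between the groups: the 6 of 12 alpha-cell markers that were measured summed to 5930 to 9942 in pseudo-islets against 3302 to 4530 in pseudo-beta. Glucagon (*Gcg*) was at 1763, 941 and 2094 in pseudo-islets, but at 36.1, 14.1 and 0 in pseudo-beta. Delta-cell markers (3 of 7 measured) summed to 660 to 935 against 629 to 821, with somatostatin (*Sst*) at 146 to 210 against 0 to 4.74. Of 12 acinar markers *Bhlha15* was the single one measured, at 121 to 274 against 160 to 296. Markers of pancreatic polypeptide cells (4 of 4 measured) summed to 1550 to 6191 against 841 to 2955. These ranges overlapped, but within every experiment each of the 4 genes had its larger value in the pseudo-islets library. Log2 fold changes were 1.15 for *Ppy*, 1.04 for *Pyy* and 0.91 for *Etv1*. Their limma adjusted p-values were 0.0027, 0.026 and 0.032 with the experiment as a block, but 0.990, 0.983 and 0.493 without it. The 2 of 10 immune markers that were measured, *Cd68* and *Cd79a*, summed to 155 to 209 in pseudo-islets against 254 to 620 in pseudo-beta. Most of this was the B-cell receptor gene *Cd79a*, which was lower in pseudo-islets at a log2 fold change of -1.25 (limma adjusted p 0.525, or 0.0385 with the experiment as a block). Of 8 endothelial markers *Esam* was measured, at 41.4 to 74.4 against 56.5 to 89.5, and of 8 stromal markers none was. The part of these cells in the results below was not tested, and in bulk RNA fewer cells of a type and less RNA per cell cannot be told apart.

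Insulin is made as preproinsulin, which enters the ER through the Sec61 channel, loses its signal peptide, folds and gains its disulfide bonds there before it moves on. Chaperones such as BiP hold unfolded chains, disulfide isomerases and Ero1 oxidases form the bonds, and chains that fail are sent back to the cytosol for degradation. When unfolded chains build up, IRE1, PERK and ATF6 start the unfolded protein response, which raises the transcription of many of these same genes. The beta-cell carries an unusually heavy secretory load, and loss of PERK or of wolframin causes diabetes.

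Much of the transcriptional part of this response runs through short promoter elements, so the promoters were read first. The windows ran from 250 bases before to 50 bases after each RefSeq start (GRCm38.p6), and 34 of the 44 genes had one. The motifs searched on both strands were the ER stress element (CCAAT, 9 bases of any kind, CCACG), its second form (ATTGG, 1 base, CCACG) and the core of the unfolded protein response element, TGACGTGG. The ER stress element was found in 9 of the 34 genes (26.5%), against 16 of the 9803 tested genes that had a window (0.163%). These 9 genes were *Hspa5*, *Hsp90b1*, *Calr*, *Canx*, *Dnajc3*, *Creld2*, *Pdia6*, *Ero1lb* and *Syvn1*, and they made up 9 of those 16. The second form was found in *Dnajb11* and *Herpud1*, 2 of 34 (5.88%) against 9 of 9803 tested genes (0.0918%). The core TGACGTGG was found in *Txndc5*, 1 of 34 (2.94%) against 105 of 9803 (1.07%). None of these 12 genes held motifs of different kinds, so none overlapped. A match is a stretch of letters and not a measured binding site. The 44 genes were chosen for their roles in this pathway, so their share of matches beside that of all tested genes is description only.

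The matches in the genes described below are printed 5′ to 3′ on the strand of the gene, with the motif in capitals. *Hspa5* and *Ero1lb* carry the same element in opposite orientations, *Hsp90b1* carries 2 copies, and *Herpud1* has the shorter second form.
Hspa5, chr2:34772020-34772048, plus strand: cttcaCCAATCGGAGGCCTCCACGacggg
Hsp90b1, chr10:86705633-86705661, minus strand: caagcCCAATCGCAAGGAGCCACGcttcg
Hsp90b1, chr10:86705528-86705556, minus strand: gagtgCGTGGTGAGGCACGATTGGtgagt
Calr, chr8:84847070-84847098, minus strand: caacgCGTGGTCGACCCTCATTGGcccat
Canx, chr11:50325795-50325823, minus strand: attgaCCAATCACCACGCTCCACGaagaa
Creld2, chr15:88819515-88819543, plus strand: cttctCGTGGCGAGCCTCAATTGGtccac
Pdia6, chr12:17266486-17266514, plus strand: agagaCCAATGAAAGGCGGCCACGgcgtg
Ero1lb, chr13:12565677-12565705, plus strand: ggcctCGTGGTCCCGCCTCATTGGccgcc
Syvn1, chr19:6046527-6046555, plus strand: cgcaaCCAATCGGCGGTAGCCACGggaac
Herpud1, chr8:94386372-94386392, plus strand: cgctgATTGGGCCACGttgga
In these 9 genes the first base of the motif lay between -212 and -44 relative to the RefSeq start. For *Hspa5* the GENCODE M21 annotation sets the gene start further upstream, so that its match falls in the annotated first exon before the coding sequence.

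The 44 genes together took 2.63, 2.31 and 2.41% of all normalized counts in the pseudo-islets of experiments 35, 36 and 37 (2.45 ± 0.166%, SD, n = 3). In pseudo-beta they took 2.41, 2.31 and 2.19% (2.30 ± 0.110%, n = 3), and the ranges of the groups overlapped. The difference of 0.149 percentage points was 0.0579 without the pseudo-islets library of experiment 35. With the 10 most abundant genes, which held 40.9 to 45.0% of the counts, left out of the total, the share was 3.59 ± 0.157% in pseudo-islets and 3.35 ± 0.0507% in pseudo-beta. Of the 5 roles, oxidative folding had shares that did not overlap, 0.700, 0.647 and 0.635% in pseudo-islets against 0.589, 0.607 and 0.529% in pseudo-beta. This separation rested on *Ero1lb*, described below: with its counts left out, the shares of the role overlapped between the groups. The chaperones took 1.03 ± 0.0872% against 0.988 ± 0.0715%, and translocation with signal peptide cleavage 0.507 ± 0.0310% against 0.469 ± 0.0204%. ER-associated degradation took 0.155% against 0.160%, and the sensors 0.0992% against 0.108%.

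Levels of different genes can be set side by side only per length, here as the mean normalized count of the 6 libraries per kilobase of the longest annotated transcript. On this scale *Hspa5* (19957 per kb) and *Pdia3* (16797 per kb) stood at the top of the 44, followed by *Pdia6* (9800 per kb) and *Hsp90b1* (9151 per kb). The sensors other than *Xbp1* lay at the bottom with *Edem1* (125 per kb), the ubiquitin ligase gene *Syvn1* (103 per kb) and *Hyou1* (86.3 per kb). Among them *Ern1* was at 91.0 and *Eif2ak3* at 65.0 normalized counts per kb, while *Xbp1* was at 7882. The order depends on which transcript the beta-cells use, which was not measured.

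**Figure D1:**
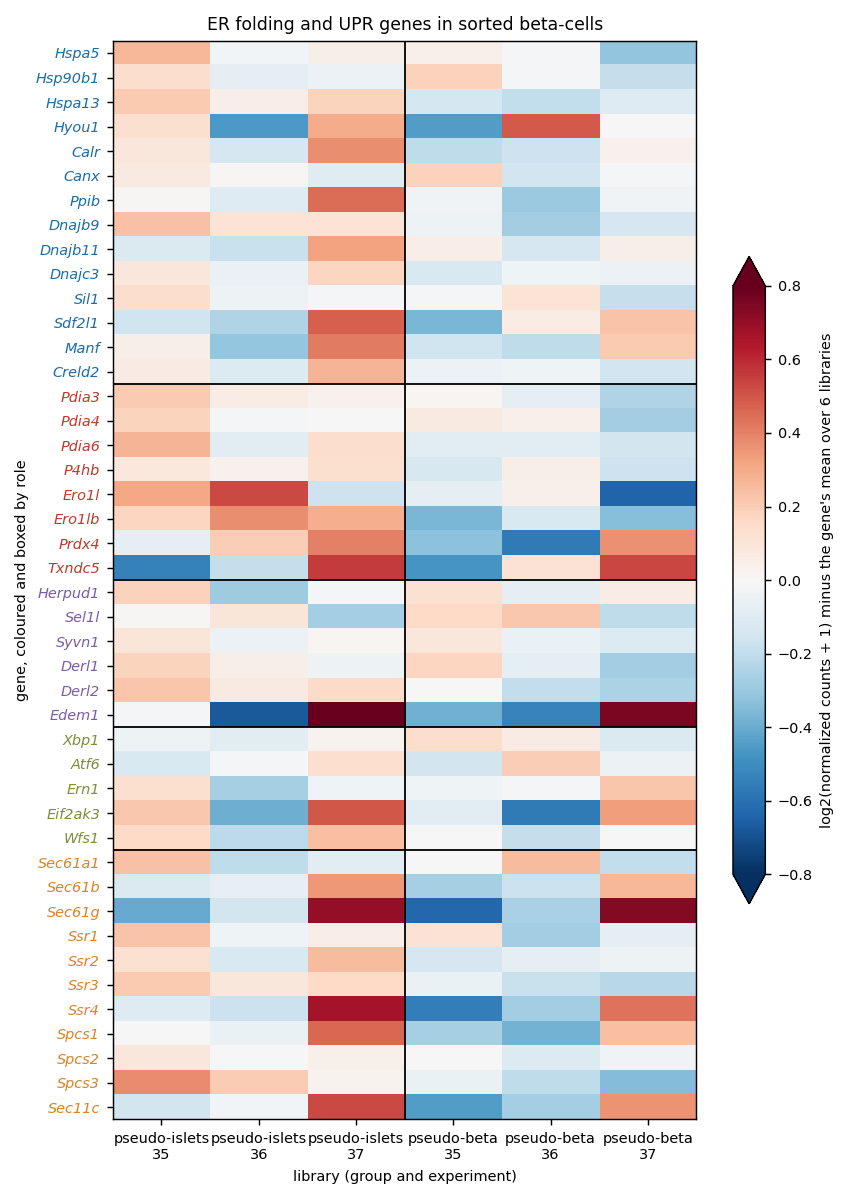
Heat map of the 44 genes (rows, coloured and boxed by role) in the 6 libraries (columns, group and experiment). Colour is log2(normalized count + 1) minus the mean of that gene over the 6 libraries, so red cells are above the gene's own mean; *Ero1lb* is red in the 3 pseudo-islets columns and blue in the 3 of pseudo-beta, and the columns of experiment 37 hold the darkest red cells in both groups.

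Differences between the groups are given as log2 fold changes, pseudo-islets over pseudo-beta, of log2(normalized count + 1), which understates changes of low genes. They were tested with limma, and p-values were adjusted over all 13535 genes by the Benjamini-Hochberg method. Libraries of the same experiment deviated together, clearly so only in experiment 37, and each test was also run with the experiment as a block. Without the block none of the 44 genes passed an adjusted p of 0.05, while 0.0591% of all genes did (8 genes, all higher in pseudo-islets). With the block, 2 of the 44 passed, *Ero1lb* and *Spcs3*, both higher in pseudo-islets, or 4.55% beside 0.436% of all genes called higher. Left without experiment 35 the blocked fit called *Ero1lb* alone. Both calls were lost when the prior variance of the blocked fit had no trend with the level: 0 of the 13535 genes then passed, with 1136 at an unadjusted p under 0.05, and the limma adjusted p was 0.510 for *Ero1lb* and 0.552 for *Spcs3*. The replicates are 3 separate experiments, and an exact permutation test of 3 against 3 libraries could not go below p = 0.1.

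Below that threshold the differences leaned one way. The log2 fold change was positive for 35 of the 44 genes (79.5%) and for 51.4% of all genes. Its median was 0.13 over the 44 genes and 0.01 over all genes, with a range from -0.12 (*Txndc5*) to 0.55 (*Ero1lb*). The median of the 44 was 0.059 with libraries scaled to equal totals, 0.074 with the 10 most abundant genes left out of the scaling and 0.068 with quantile normalization, where that of all genes was -0.064, -0.049 and 0.0035. Positive values then numbered 30, 31 and 31 of 44. Counting unadjusted limma p-values under 0.05, 6 of 44 (13.6%) were higher in pseudo-islets without the block, beside 2.73% of all genes, and 16 of 44 (36.4%) with it, beside 6.69%. None of the 44 was lower at that level in either fit. With no trend in the prior variance the 16 fell to 3. The 6 fell to 1 without the pseudo-islets library of experiment 35, to 3 without the pseudo-beta library of experiment 36, and to 2 when libraries were scaled to equal totals. All 3 pseudo-islets libraries exceeded all 3 pseudo-beta libraries for 7 of 44 genes (15.9%), *Hspa13*, *Dnajb9*, *Pdia3*, *Ero1lb*, *Derl2*, *Ssr3* and *Spcs3*, beside 5.63% of all genes.

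Most of the 44 are well expressed, and among well expressed genes a positive sign was more common. This second comparison was added after the values had been seen. Of the 4448 genes whose mean was 500 normalized counts or more, 63.1% had a positive log2 fold change and 7.76% had pseudo-islets above pseudo-beta without overlap, with a median of 0.05. Those 40 of the 44 genes above that mean gave 80.0% and 17.5%. An unadjusted p under 0.05 with the block, higher in pseudo-islets, was reached by 13.0% of those 4448 genes and by 40.0% of the 40. An adjusted p under 0.05 with the block, higher in pseudo-islets, was reached by 1.10% and 5.0%.

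The 3 experiments did not contribute equally. Pseudo-islets were above pseudo-beta for 38 of the 44 genes in experiment 35, for 22 in experiment 36 and for 39 in experiment 37. In the same order, they were above for 49.7, 49.7 and 54.4% of all genes. Among genes whose mean was 500 or more the shares were 54.5, 56.5 and 68.5%. The median difference of the 44 was 0.21, 0.00 and 0.23 on the log2 scale, while that of all genes was -0.00, -0.00 and 0.04. In all, 20 of the 44 genes (45.5%) were higher in 3 of 3 experiments, beside 18.0% of all genes, and 1 gene (2.27%), *Sel1l*, was lower in 3 of 3, beside 15.1%. Of the 4448 genes whose mean was 500 or more, 28.1% were higher and 11.2% lower in 3 of 3. Of the 40 measured here at that mean, 42.5% were higher and 2.5% lower. Without the pseudo-islets library of experiment 36 the median of the 44 was 0.22, and without that of experiment 37 it was 0.06.

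**Figure D2:**
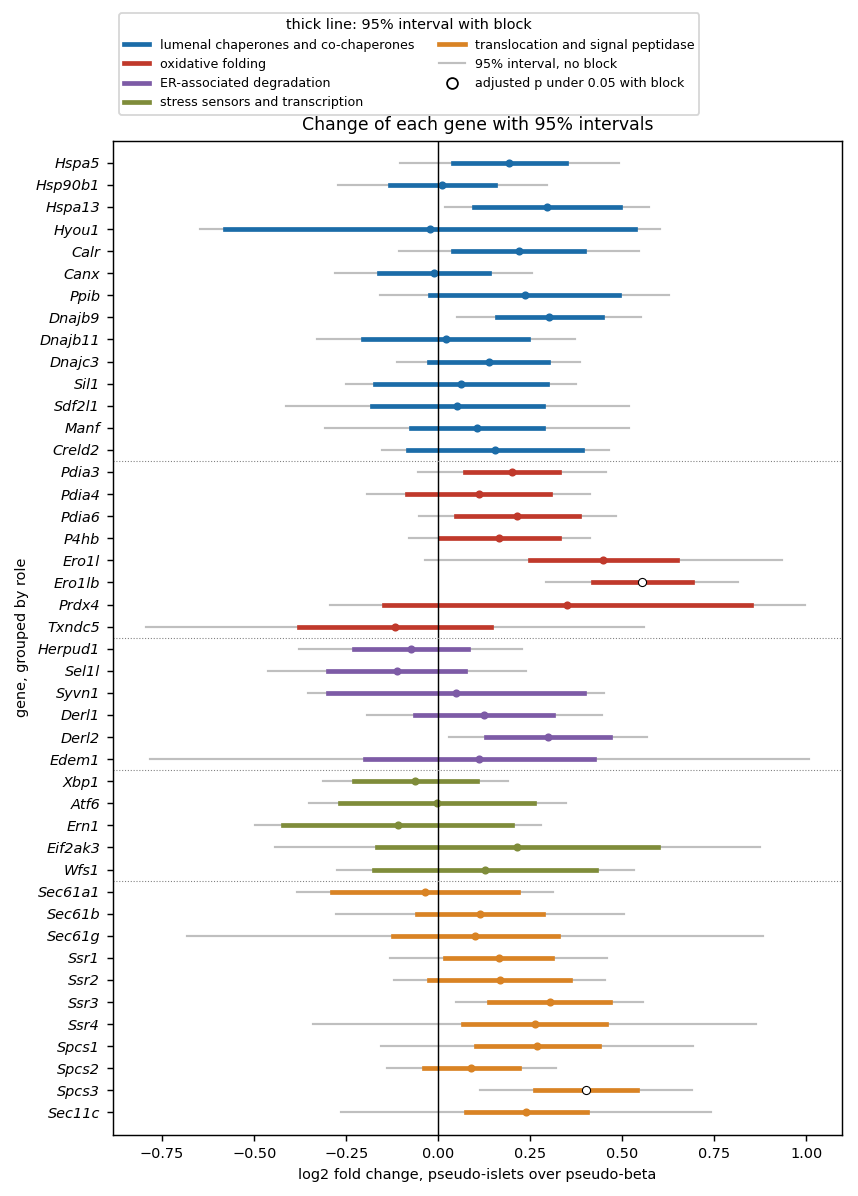
Log2 fold change of each of the 44 genes (rows, grouped by role), pseudo-islets over pseudo-beta. Points are fitted values, thick lines 95% intervals with the experiment as block and thin grey lines those without it; open points mark adjusted p under 0.05 with the block, *Ero1lb* at 0.55 and *Spcs3* at 0.40, and most other points sit between 0 and 0.30.

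The oxidative folding genes held the largest difference. Ero1-beta, encoded by *Ero1lb* (ENSMUSG00000057069, chr13:12565874-12611396, plus strand, GRCm38), reoxidizes the protein disulfide isomerases and is the Ero1 form that is abundant in pancreatic islets. In experiments 35, 36 and 37 its level was 27724, 31789 and 30096 normalized counts in pseudo-islets, against 19067, 22656 and 19420 in pseudo-beta. The lowest pseudo-islets library stood above the highest pseudo-beta library. The means were 29870 ± 2042 and 20381 ± 1978 (SD, n = 3 each), a log2 fold change of 0.55 (SE 0.12 without the block, 0.06 with it), or 1.47-fold. The limma adjusted p was 0.372 without the block and 0.0020 with it, and the difference was 0.54, 0.49 and 0.63 within the experiments. Leaving out single libraries moved the log2 fold change between 0.51 and 0.63. The small RNA gene model *Gm25483* lies within *Ero1lb* on the same strand.

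Its sister oxidase Ero1-alpha, encoded by *Ero1l*, was at 2716, 3162 and 1955 normalized counts in pseudo-islets, against 2080, 2257 and 1408 in pseudo-beta. The groups overlapped because both libraries of experiment 37 lay below the other 4, but within each experiment pseudo-islets were higher, by 0.38 to 0.49. The log2 fold change was 0.45 (SE 0.22, with the block 0.09) and the limma adjusted p with the block was 0.0603, short of the threshold.

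The disulfide isomerases make and reshuffle the bonds that the oxidases feed. *Pdia6*, encoding P5, was at 25580, 19915 and 23351 in pseudo-islets and at 19963, 19947 and 19130 in pseudo-beta, with a log2 fold change of 0.21 ± 0.12 (SE). In experiment 36 the groups were level, and in experiments 35 and 37 pseudo-islets were higher. *P4hb*, encoding protein disulfide isomerase itself, was at 15527, 15002 and 16002 against 13379, 15126 and 13038, a log2 fold change of 0.17 ± 0.11 (SE). *Pdia3* did not overlap between the groups and had a log2 fold change of 0.20, but its limma adjusted p with the block was 0.202. *Txndc5*, another isomerase gene of the thioredoxin fold, gave the lowest value of the 44, -0.12, and this turned positive without the pseudo-islets library of experiment 35 or the pseudo-beta library of experiment 37 (0.12 in both cases). Of the 8 genes of this role 7 had a positive log2 fold change, 4 were higher in 3 of 3 experiments, and the median was 0.21. Among genes whose mean was 500 or more, 63.1% were positive and 28.1% were higher in 3 of 3.

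**Figure D3:**
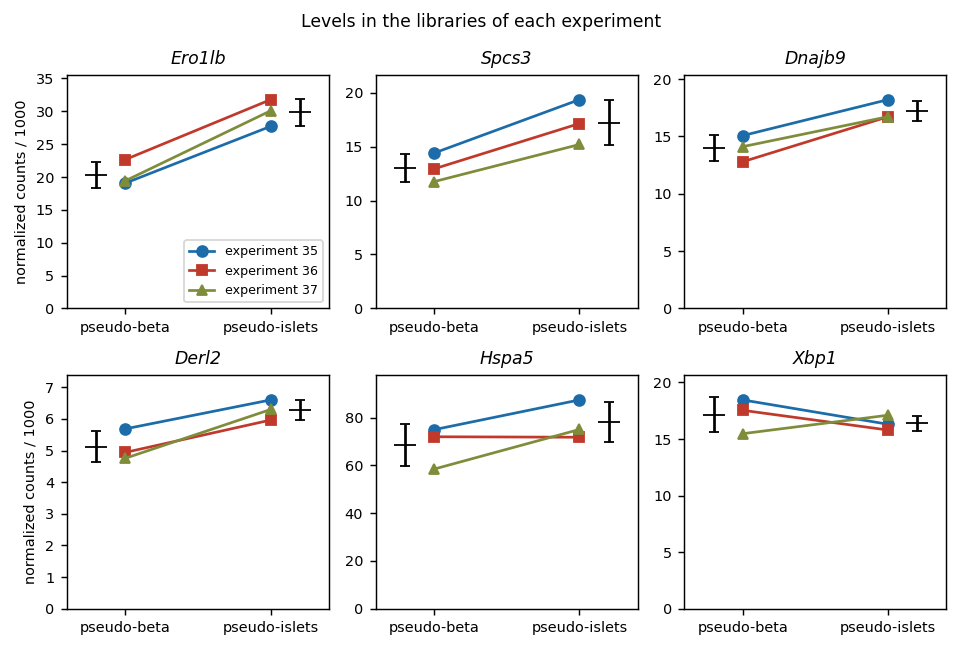
Normalized counts (in units of 1000) of 6 genes in pseudo-beta and pseudo-islets, with a line joining the 2 libraries of each experiment; black bars beside the points are means with SD of 3 libraries. *Ero1lb*, *Spcs3*, *Dnajb9* and *Derl2* go up in 3 of 3 experiments, *Hspa5* is level in experiment 36, and *Xbp1* goes down in experiments 35 and 36.

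Translocation and signal peptidase genes act at the entry to the ER. *Spcs3* (ENSMUSG00000054408, chr8:54520433-54529998, minus strand, GRCm38) encodes a subunit of the signal peptidase complex, which cuts the signal peptide from preproinsulin. It was at 19350, 17134 and 15192 normalized counts in pseudo-islets, against 14391, 12928 and 11747 in pseudo-beta, again without overlap. The means were 17225 ± 2080 and 13022 ± 1324 (SD, n = 3 each), a log2 fold change of 0.40 (SE 0.13, with the block 0.06), or 1.32-fold. The difference was 0.43, 0.41 and 0.37 within the experiments. Its limma adjusted p was 0.811 without the block and 0.0208 with it, and with the block it was 0.116 once experiment 35 was left out. *Asb5* overlaps *Spcs3* on the opposite strand, and whether the counting used strand is not given in the sources used here.

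The other subunits pointed the same way with smaller values. Log2 fold changes were 0.27 for *Spcs1*, 0.09 for *Spcs2* and 0.24 for *Sec11c*, each positive in 3 of 3 experiments, and without the pseudo-islets library of experiment 37 the values of *Spcs1* and *Sec11c* were 0.11 and 0.036. Their limma adjusted p-values with the block lay from 0.198 to 0.606. Of the TRAP complex, which sits beside the channel and helps some chains to enter, *Ssr1* was at 15725, 13131 and 13920 in pseudo-islets and at 14537, 11063 and 12713 in pseudo-beta (log2 fold change 0.16 ± 0.13, SE). *Ssr3* did not overlap between the groups, and its log2 fold change was 0.30 (limma adjusted p with the block 0.138). *Sec61a1*, which encodes the pore of the channel, was the only gene of this role with a negative value, -0.04 ± 0.16 (SE). It was at 7290, 5373 and 5820 in pseudo-islets and at 6191, 7358 and 5399 in pseudo-beta, so that experiment 36 went against the other two, and without that experiment the value was 0.17. Of the 11 genes of this role 10 were positive, 8 were higher in 3 of 3 experiments, and the median was 0.17. The shares beside these counts were 63.1% and 28.1% among genes whose mean was 500 or more.

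Of the 14 lumenal chaperones and co-chaperones 12 (85.7%) had a positive log2 fold change and 4 (28.6%) were higher in 3 of 3 experiments, with a median of 0.12. Among genes whose mean was 500 or more these shares were 63.1% and 28.1%. With the block 4 chaperone genes (28.6%) were higher at an unadjusted limma p under 0.05, beside 13.0% of the genes at that mean. None passed the adjusted threshold. BiP, encoded by *Hspa5*, is the main Hsp70 of the ER and the usual reporter of its stress response. It was at 87431, 71805 and 75061 normalized counts in pseudo-islets, against 74954, 72000 and 58453 in pseudo-beta. The groups overlapped, pseudo-islets were higher in experiments 35 and 37, and the libraries of experiment 36 were level. The log2 fold change was 0.19 (SE 0.13, with the block 0.07) and the limma adjusted p with the block was 0.309. *Hsp90b1*, encoding the ER Hsp90 called GRP94, was at 28418, 24404 and 24904 against 29259, 25563 and 22555. Its log2 fold change was 0.01 ± 0.13 (SE) and turned to -0.06 with libraries scaled to equal totals.

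*Dnajb9*, encoding the BiP partner ERdj4, had the lowest p of the chaperone group in both fits. It was at 18213, 16722 and 16727 in pseudo-islets and at 15071, 12792 and 14110 in pseudo-beta, without overlap. The log2 fold change was 0.30 (SE 0.11, with the block 0.06), and the limma adjusted p was 0.872 without the block and 0.0753 with it. *Hspa13*, an Hsp70 relative, also did not overlap, and its log2 fold change was 0.30 (limma adjusted p with the block 0.231). Both stayed positive under every scaling tried and whichever library was left out.

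Calreticulin and calnexin bind chains that carry a trimmed sugar. *Calr* was at 7357, 6289 and 8939 in pseudo-islets and at 6009, 6165 and 7085 in pseudo-beta (log2 fold change 0.22 ± 0.15, SE), higher in 3 of 3 experiments but with overlapping groups. *Canx* was at 32749, 31438 and 29111 against 35405, 28105 and 30890, a log2 fold change of -0.01 ± 0.12 (SE), with experiment 36 opposite to the other two. *Hyou1*, encoding the exchange factor GRP170, varied most of the chaperones, at 411, 273 and 463 in pseudo-islets against 275, 528 and 374 in pseudo-beta. The differences per experiment were 0.58, -0.95 and 0.30, the mean was -0.02 ± 0.28 (SE), and without experiment 36 it was 0.44.

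A few small secreted or lumenal proteins are often read as reporters of ER stress. *Manf*, encoding a BiP cofactor that is also secreted, was at 8036, 6272 and 10376 in pseudo-islets and at 6953, 6735 and 8975 in pseudo-beta. *Sdf2l1*, a partner of BiP and its co-chaperones, was at 4607, 4366 and 7176 against 3996, 5370 and 6037. *Creld2*, which acts with disulfide isomerases, was at 2482, 2199 and 2864 against 2297, 2313 and 2133. For each of these 3 genes pseudo-islets were higher in experiments 35 and 37 and lower in experiment 36. The log2 fold changes were 0.11 for *Manf* and 0.15 for *Creld2*, and that of *Sdf2l1* was 0.05, which turned to -0.02 with equal library totals. The remaining chaperone genes, *Ppib*, *Dnajb11*, *Dnajc3* and *Sil1*, had log2 fold changes between 0.02 (*Dnajb11*) and 0.23 (*Ppib*), and those of *Dnajb11* and *Sil1* turned negative with equal library totals.

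Genes of ER-associated degradation gave differences of both signs. *Derl2*, encoding a derlin of the export channel, had the lowest p of this group, at 6599, 5963 and 6297 in pseudo-islets against 5683, 4939 and 4754 in pseudo-beta. The groups did not overlap, the log2 fold change was 0.30 (SE 0.12, with the block 0.08), and the limma adjusted p was 0.888 without the block and 0.153 with it. *Sel1l*, the adaptor of the HRD1 ligase, was at 2901, 3081 and 2390 against 3218, 3357 and 2502, lower in 3 of 3 experiments at a log2 fold change of -0.11 ± 0.16 (SE). *Syvn1*, encoding HRD1 itself, was at 381, 345 and 360 against 379, 343 and 329, a log2 fold change of 0.05 ± 0.18 (SE) that turned to -0.02 with equal library totals.

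*Herpud1*, whose product joins the same complex and is induced early in ER stress, was at 18051, 13051 and 15836 in pseudo-islets and at 17349, 15168 and 16554 in pseudo-beta. The log2 fold change was -0.07 ± 0.14 (SE), and it was 0.05 without the pseudo-islets library of experiment 36. *Derl1* and *Edem1* had log2 fold changes of 0.12 and 0.11. The median of the 6 genes was 0.08.

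None of the 5 sensor and transcription genes reached an unadjusted limma p of 0.05 in either fit. *Ern1*, encoding IRE1-alpha, was at 689, 524 and 615 in pseudo-islets and at 613, 621 and 732 in pseudo-beta (log2 fold change -0.11 ± 0.18, SE). *Xbp1*, whose mRNA IRE1 splices, was at 16305, 15794 and 17109 against 18460, 17542 and 15474 (-0.06 ± 0.11). Values per gene do not separate the spliced from the unspliced *Xbp1* mRNA. *Atf6* was at 941, 1011 and 1122 against 924, 1171 and 992, a log2 fold change of -0.00 ± 0.16 (SE).

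*Eif2ak3*, encoding PERK, was at 329, 216 and 400 in pseudo-islets and at 266, 191 and 357 in pseudo-beta. It was higher in 3 of 3 experiments, by 0.16 to 0.30, but experiments differed more than groups did, and the log2 fold change of 0.22 had an SE of 0.30, or 0.17 with the block. *Wfs1*, encoding wolframin, was at 634, 491 and 671 against 568, 498 and 566 (0.13 ± 0.18). With the block, the 95% interval of 4 of these 5 genes lay within a 1.5-fold change in either direction, *Eif2ak3* being the exception. The same held for 40 of the 44 genes (90.9%), with *Ero1l*, *Ero1lb*, *Prdx4* and *Eif2ak3* outside, beside 42.0% of all genes. Among genes whose mean was 500 or more it held for 38 of the 40 measured here, beside 88.9% of the 4448. Without the block it held for 31 of the 44 (70.5%), beside 27.3% of all genes. At a mean of 500 or more it then held for 30 of the 40 measured here, beside 66.2% of the 4448.

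Differences were also set beside the promoter matches. The 11 genes with either form of the ER stress element had a median log2 fold change of 0.14, with 9 positive. The 23 genes with a promoter window but neither form had a median of 0.16, with 19 positive. *Ero1lb*, at 0.55, and *Canx*, at -0.01, both carry the element printed above.

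Other genes of the pathway were taken from 7 further lists. Of 115 genes 110 were measured, their log2 fold changes ran from -0.61 to 0.71, and none passed an adjusted p of 0.05 in either limma fit. Of these, 79 (71.8%) had a positive and 31 a negative log2 fold change, with a median of 0.11. A positive value was held by 51.4% of all genes and 63.1% of those whose mean was 500 or more. Unadjusted p-values under 0.05 were reached by 4 higher (3.64%) and 2 lower genes without the block, beside 2.73% of all genes higher. With the block they were reached by 15 higher (13.6%) and 2 lower genes, beside 6.69% of all genes and 13.0% of those whose mean was 500 or more. All 16 genes of the oligosaccharyltransferase and glycan trimming list were positive, with a median of 0.14 and a smallest value of 0.015. Of the 16, 6 were higher in 3 of 3 experiments, beside 18.0% of all genes and 28.1% of those whose mean was 500 or more. The median difference of this list was 0.23, -0.02 and 0.19 in experiments 35, 36 and 37. Log2 fold changes of these further lists were taken under the deposited scaling only. The medians of the other lists lay between 0.02 (genes downstream of PERK, 5 of 9 positive) and 0.12 (regulators of ATF6 and IRE1, 6 of 11 positive). Further degradation genes (14 of 19 positive), further isomerases and chaperones (20 of 27) and genes of ER shape and turnover (7 of 12) each had a median of 0.10, and the signal recognition particle list (11 of 17) one of 0.09. In the glycan list *Uggt2*, a folding sensor for glycoproteins, had the lowest p, at 325, 361 and 328 in pseudo-islets against 140, 222 and 278 in pseudo-beta (log2 fold change 0.71, limma adjusted p with the block 0.217). *Rtn4*, a reticulon that shapes ER tubules, had the lowest adjusted p of the 110 genes with the block, 0.0740, at a log2 fold change of 0.38.

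The genes downstream of PERK gave both signs. *Ddit3*, encoding CHOP, the transcription factor tied to death under lasting ER stress, was at 979, 1093 and 903 in pseudo-islets and at 1373, 1324 and 1246 in pseudo-beta. All pseudo-islets libraries lay below all pseudo-beta libraries, the log2 fold change was -0.41 (SE 0.15, with the block 0.11), and the limma adjusted p was 0.862 without the block and 0.168 with it. *Atf4*, the factor that PERK activity translates, was at 2029, 1528 and 2084 against 1885, 1664 and 1964 (0.02 ± 0.16). The median over the 9 measured genes of this list was 0.02. *Sec61a2*, a second pore gene of the channel, was also lower in 3 of 3 experiments (-0.61, limma adjusted p with the block 0.231). In the same list *Serp1*, a protein of the translocon, was higher in 3 of 3 (0.22, adjusted p 0.180). The genes with the lowest p in the remaining lists were *Erlec1* (0.37), *Txndc12* (0.33) and *Atf6b* (0.45), with adjusted p-values from 0.232 to 0.416 in the blocked fit.

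Experiment 37 stood apart from the other two in some of the 44 genes, whichever the group. Both of its libraries lay above the other 4 for 11 genes (25.0%), beside 16.2% of all genes, and below them for 2 genes (4.55%), beside 15.5%. The 11 were *Sdf2l1*, *Manf*, *Prdx4*, *Txndc5*, *Edem1*, *Eif2ak3*, *Sec61b*, *Sec61g*, *Ssr4*, *Spcs1* and *Sec11c*, and the 2 were *Ero1l* and *Sel1l*. Among the 4448 genes whose mean was 500 or more, 15.9% lay above and 26.1% below. For the 40 measured here at that mean the shares were 22.5% and 5.0%. Such counts were not made for experiments 35 and 36. The mean of experiment 37 minus that of experiments 35 and 36 was 1.21 for *Edem1*, 1.08 for *Sec61g*, 0.82 for *Ssr4* and 0.82 for *Txndc5* on the log2 scale. These shifts exceed every difference between the groups among the 44 genes, the largest of which was 0.55.

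*Edem1*, which marks misfolded glycoproteins for disposal, shows the pattern most clearly. It was at 654, 416 and 1200 normalized counts in pseudo-islets, against 506, 457 and 1117 in pseudo-beta. *Sec61g*, the small gamma subunit of the channel, was at 1217, 1453 and 2630 against 1042, 1349 and 2687. Within experiments the log2 differences between the groups ran from -0.14 to 0.37 for *Edem1* and from -0.03 to 0.22 for *Sec61g*. These differences were smaller than the shifts of the same genes given above.

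Of the 9 genes whose longest transcript is under 1500 bases, 6 were among the 11 (66.7%), beside 22.8% of the 2634 tested genes of that length. Over the 44 genes the Spearman correlation of the shift with transcript length was -0.37, over 13522 genes with a length it was -0.03, and over the 4445 of them whose mean was 500 or more it was -0.21. These are correlations across genes measured in the same 6 libraries. The share of mitochondrially encoded transcripts was highest in experiment 37 in both groups (1.305% and 1.496%, against 0.726 to 0.864% in the other 4 libraries). The part of transcript length and of these shares in the shift was not tested.

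**Figure D4:**
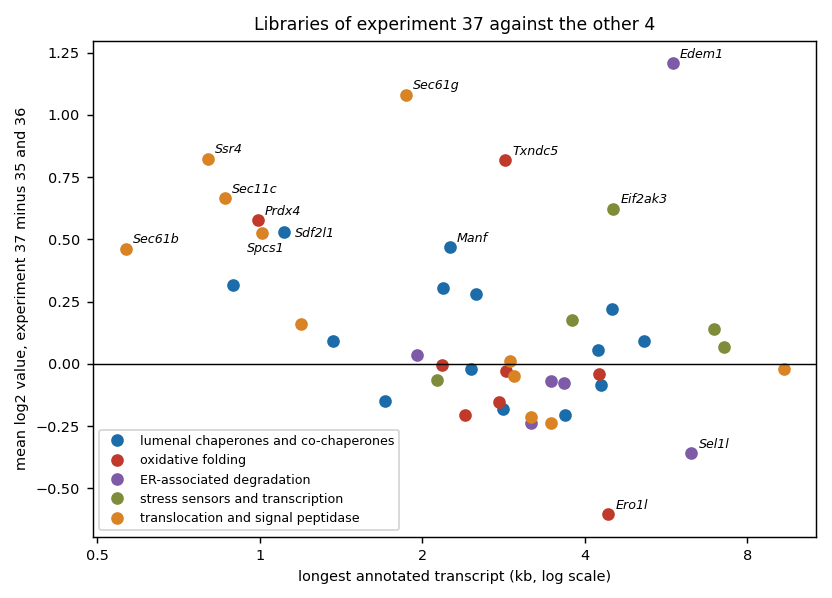
Shift of experiment 37 in each of the 44 genes (vertical axis, mean log2 value of its 2 libraries minus the mean of the other 4) against the longest annotated transcript (kb, log axis), coloured by role. Named genes have both libraries of experiment 37 above or below the other 4; *Edem1* is highest at 1.21, and 6 of the 9 genes with transcripts under 1.5 kb are named.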

How the data were processed

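RNA from sorted beta-cells (5 ng) was made into libraries with the Ovation SOLO kit, which were then depleted of ribosomal RNA and sequenced as 75-base pairs. The authors aligned reads to GRCm38 with STAR 2.7.6a, quantified genes with RSEM 1.3.1 and deposited a signal per gene, counts divided by DESeq2 1.26.0 size factors. Raw counts were not used here, so read depth is unknown. The deposited table also holds the authors' own fold changes, test statistics and p-values, which were not used. All 13535 genes of the table have a value of at least 10 in at least 3 libraries, and no further filter was used.

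Values were analysed as log2(value + 1) with limma 3.58.1 (R 4.3.3, trended prior variance), without covariates and, as an alternative, with the experiment as a block. Deviations from the group means correlated at 0.119, 0.121 and 0.325 between libraries of experiments 35, 36 and 37 and at -0.203 to 0.0922 between others. The margin was thus small for experiments 35 and 36. Deviations from a group mean cancel within the group, so these correlations depend on each other, and those between other libraries are not an independent baseline. The experiment numbers, which come from the sample titles, were taken to pair the libraries. No pair of libraries was identical. Other scalings, pseudocounts of 0.1 and 10, filters and left-out libraries were tried. When the fits were tested on simulated data, the share of false calls with the block was above what the threshold allows. Gene positions and transcript lengths came from GENCODE M21, promoters from RefSeq. *Hspa5*, *Hsp90b1*, *Calr* and other defining genes of each role, genes called in either fit and the gene with the lowest p in each role are described by library, the rest by range. The genes, roles and lists were chosen with earlier results of these data known.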

Additional observations from a re-analysis of the deposited data

How the results depend on the processing

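Of the 44 genes, 26 kept the sign of their log2 fold change under all 21 settings, 13 changed sign only where libraries were left out, and 5 under another scaling. Over all genes, 8 were called in the fit without a block, 73 with the replicate block, 82 with it and scaling without the 10 most abundant genes, and 81 with it and quantile normalization. Without the block 2 genes were called under total scaling, scaling without the 10 most abundant genes, quantile normalization or no trend in the prior variance, and 1 with a pseudocount of 0.1. With the block and no trend 0 genes were called, with 1136 at an unadjusted p under 0.05, and the adjusted p was 0.510 for *Ero1lb* and 0.552 for *Spcs3*. Leaving out single libraries gave 0 to 13 calls, and leaving out experiments 35, 36 and 37 in the blocked fit gave 28, 73 and 45. Of the 44 genes 2 were called with the replicate block under the deposited scaling, scaling without the 10 most abundant genes and quantile normalization (total scaling was run without the block only), and 1 to 2 with an experiment left out. Those at an unadjusted p under 0.05 numbered 6 in the main fit and 16 with the block, 13 and 12 with the block under those other scalings, 2 under total scaling, 1 and 3 with no trend without and with the block, 1 to 9 with a library left out and 11 to 21 with an experiment left out of the blocked fit.

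Signs turned under total scaling for *Hsp90b1* (-0.062), *Dnajb11* (-0.053), *Sil1* (-0.012), *Sdf2l1* (-0.021) and *Syvn1* (-0.025). Without the 10 most abundant genes, with or without the block, they turned for *Hsp90b1* (-0.047), *Dnajb11* (-0.038), *Sdf2l1* (-0.0065) and *Syvn1* (-0.0099), and under quantile normalization for *Hsp90b1* (-0.11), *Dnajb11* (-0.057), *Sil1* (-0.012) and *Sdf2l1* (-0.042). In the blocked fit signs turned without experiment 35 for *Canx* (0.038), *Sdf2l1* (-0.025) and *Edem1* (-0.016), without experiment 36 for *Hyou1* (0.44), *Atf6* (0.10) and *Sec61a1* (0.17), and without experiment 37 for *Hsp90b1* (-0.054), *Canx* (0.025), *Dnajb11* (-0.11) and *Sdf2l1* (-0.047). With single libraries left out the ranges that crossed 0 were -0.081 to 0.11 for *Hsp90b1*, -0.25 to 0.22 for *Hyou1*, -0.090 to 0.076 for *Canx*, -0.14 to 0.12 for *Dnajb11*, -0.016 to 0.13 for *Sil1*, -0.17 to 0.18 for *Sdf2l1*, -0.077 to 0.29 for *Manf*, -0.0027 to 0.17 for *Pdia4*, -0.43 to 0.12 for *Txndc5*, -0.18 to 0.050 for *Herpud1*, -0.29 to 0.52 for *Edem1*, -0.077 to 0.094 for *Atf6*, -0.015 to 0.46 for *Eif2ak3*, -0.16 to 0.079 for *Sec61a1*, -0.034 to 0.27 for *Sec61b*, -0.23 to 0.49 for *Sec61g* and -0.0049 to 0.54 for *Ssr4*. The cause was not tested. With a library left out, the spread of the smaller group is assumed to be that of the larger.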
